A study of Mus musculus with 7 samples.

Results

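The genes described here are 34 markers of the nerve cells that supply the bladder: the autonomic neurons of the pelvic ganglia and the sensory neurons of dorsal root ganglia. For each gene, the probe sets that the platform annotation assigns to that gene alone were taken, and the one with the highest mean over the 7 arrays stood for the gene. A probe set of this kind was found for 33 of the 34 genes, of 18193 genes measured by the same rule. Calca, which encodes calcitonin gene-related peptide, had none and was not analysed here.

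Expression was measured on 1-colour Affymetrix mouse genome arrays. There were 3 groups. The adult group held 3 bladders (Theiler stage 28) and the postnatal day 1 (P1) group held 3 bladders (Theiler stage 27). All 6 came from male FVB/N mice that carry SMGA/EGFP, a transgene with enhanced green fluorescent protein under the promoter of Actg2, the smooth muscle gamma-actin gene. The bladders were dissected whole, so muscle, urothelium, nerves and any attached ganglia were read together. The last group was 1 array of whole wild-type FVB/N newborns, a pool of 4 males and 4 females without the transgene, of the same age as the P1 bladders (postnatal day 1, Theiler stage 27); the word bladders in its title goes against the source and protocol, which give whole mice. Storage followed stage, with liquid nitrogen for adult and a freezer for P1 bladders, and their effects cannot be told apart. Nothing in the labels says whether replicates came from separate litters or days, and p-values measure only the spread between these samples.

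Bladder nerves come from 3 sources. Parasympathetic neurons of the pelvic ganglia contract the bladder with acetylcholine and also release vasoactive intestinal peptide and nitric oxide. Sympathetic neurons use noradrenaline, often with neuropeptide Y, and sensory neurons carry peptides such as substance P. In the mouse, pelvic ganglia lie beside the bladder neck and, in males, the prostate and seminal vesicles. Most messenger RNA of a neuron lies in its cell body, whereas the cell bodies of bladder sensory neurons lie far away, near the spinal cord.

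The values are intensities on a linear scale, which the authors scaled to the same trimmed mean on every array. The median intensity was 226.2, 311.7 and 234.1 on adult replicates 1 to 3, 262.8, 208.8 and 290.3 on P1 replicates 1 to 3, and 434.2 on the whole newborn array. Of 15 urothelial and smooth muscle genes, the mean log2 level lay between 13.97 and 14.53 on the adult arrays and between 14.13 and 14.45 on the P1 arrays, against 11.26 on the whole newborn array. The bladder arrays therefore carried the markers of their labelled tissue. The 14 measured brain genes averaged between 6.69 and 6.93 in adult bladder and between 6.93 and 7.16 in P1 bladder, against 9.24 in whole newborns. The adrenal genes Pnmt, Cyp11b1, Cyp11b2, Cyp21a1, Star, Hsd3b1 and Mc2r averaged 7.68 to 7.79 in adult bladder and 7.54 to 7.88 in P1 bladder. In whole newborns they averaged 9.13 (7 of 7 measured). All log2 levels here are log2(intensity + 49).

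Most of the neuron genes had lower readings in adult than in P1 bladder, few passed the test, and the adult arrays disagreed on the size of the gap. In limma's fit over all probe sets, 5 of the 33 genes were lower in adult bladder at a Benjamini-Hochberg adjusted p under 0.05: Dcx, Ina, Phox2a, Elavl3 and Gap43. None was higher, and 28 did not pass. Of all 18193 genes, 2.39% were called lower and 1.75% higher in adult bladder. At an unadjusted p under 0.05, 19 members were lower and 0 were higher, against 10.6% and 9.73% of all genes. The median log2 difference over the 33 genes was -1.31, against -0.03 over all genes, and 29 of the 33 values were below 0, against 52.5% of all genes. In 17 of the 33 genes every adult array read below every P1 array, which was so for 14.1% of all genes. No member had every adult array above every P1 array, which was so for 12.3% of all genes. In whole bladders, fewer neurons, less RNA per neuron and a change in dissection or tissue mix cannot be told apart.

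**Figure D1:**
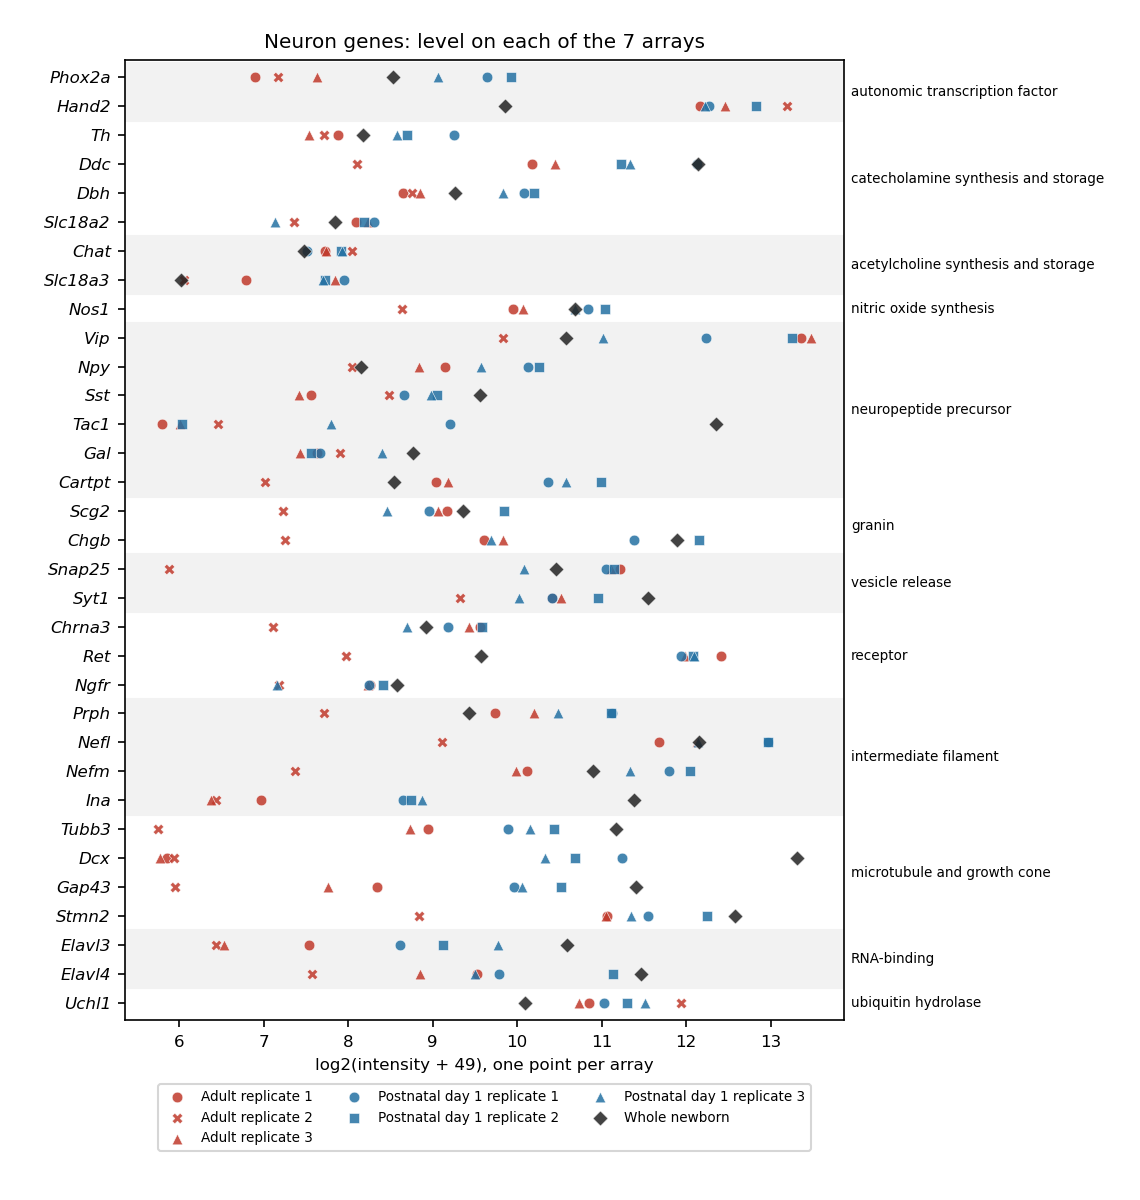
Level of each of the 33 neuron genes on each array, as log2(intensity + 49), ordered by role. Red symbols are the 3 adult bladders, blue symbols the 3 P1 bladders and black diamonds the whole newborn pool; in 17 genes all red symbols lie left of all blue ones, and the cross of adult replicate 2 is often far to the left.

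Adult replicate 2 stood apart. Against the mean of the P1 arrays, 15, 25 and 15 of the 33 genes were lower on adult replicates 1, 2 and 3, where lower means past 1 log2 unit and below all P1 arrays. Over all genes, 9.6%, 10.9% and 9.46% met this rule on the same arrays. The median difference of the members from the P1 mean was -0.96, -2.32 and -0.79 on adult replicates 1, 2 and 3, against -0.08, 0.02 and -0.05 over all genes. Only Vip was higher by the same rule, on adult replicates 1 and 3, where 7.71% and 7.93% of all genes were. No member was higher on adult replicate 2, where 10.5% of all genes were. Without P1 replicate 3 Vip no longer met the rule, and the count was 0 on both arrays.

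In 22 of the 33 genes adult replicate 2 was the lowest adult array, which was so for 37.4% of all genes. Adult replicates 1 and 3 were the lowest in 5 and 6 members, against 35.3% and 27.4% of all genes. The 3 adult arrays spanned more than 2 log2 units in 13 members, against 3.48% of all genes, and adult replicate 2 was the lowest in all 13, against 1.39% of all genes that met both conditions. Over the P1 arrays 3 members spanned as much, where the share of all genes was not counted. Of the 33 members, 8 lay above the array median on adult replicate 2, against 22 on each of adult replicates 1 and 3, and 29, 29 and 27 on the P1 arrays. That median was higher on adult replicate 2 (311.7) than on adult replicates 1 and 3 (226.2 and 234.1). The share of all genes above it was not counted. These counts describe the arrays and carry no test, since each adult array is 1 sample.

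Other readings of adult replicate 2 moved with this pattern. The 13 measured of 17 listed genes of male accessory glands (seminal vesicle and prostate) summed to intensities of 11371, 799 and 11483 on adult replicates 1 to 3, against 780, 742 and 594 on the P1 arrays. On adult replicate 2, as on every P1 array, all 13 lay below the array median, against 3 on each of adult replicates 1 and 3. Svs4, a seminal vesicle secretory protein gene, read 3149.7, 3.4 and 3861 on the adult arrays, against 6.0, 0.9 and 4.0 on the P1 arrays. The spike-in controls, set against their lowest array, read 1.0, 2.35 and 1.12 on the adult arrays and 1.43, 1.16 and 1.68 on the P1 arrays. Glial genes went both ways. The 12 measured of 15 averaged 10.47, 10.61 and 10.34 on the adult arrays, against 10.55, 10.34 and 10.01 on the P1 arrays. Adult replicate 2 was the lowest adult array in 3 of them (Mbp, Cdh19 and Fabp7) and the highest in 6 (Sox10, Erbb3, Egr2, Mal, Gfap and L1cam). Of these 6, Sox10 and Gfap lay below the median of that array, and Mal read 24854 there against 1473 in whole newborns. The mean of this list is therefore no measure of glia on adult replicate 2. Cdh19, a Schwann cell cadherin, read 1381, 268.0 and 794.6 on the adult arrays, whereas Egr2, a myelination factor that is also an immediate early gene, read 522.4, 4980 and 692.5. The 15 bladder tissue genes summed to 390100, 585316 and 400624 on the adult arrays, against 491798, 449673 and 566235 on the P1 arrays. Adult replicate 2 was the highest adult array in 12 of the 15 and the lowest in 3. The part of dissection, tissue mix or RNA input in the neuron values was not tested.

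**Figure D2:**
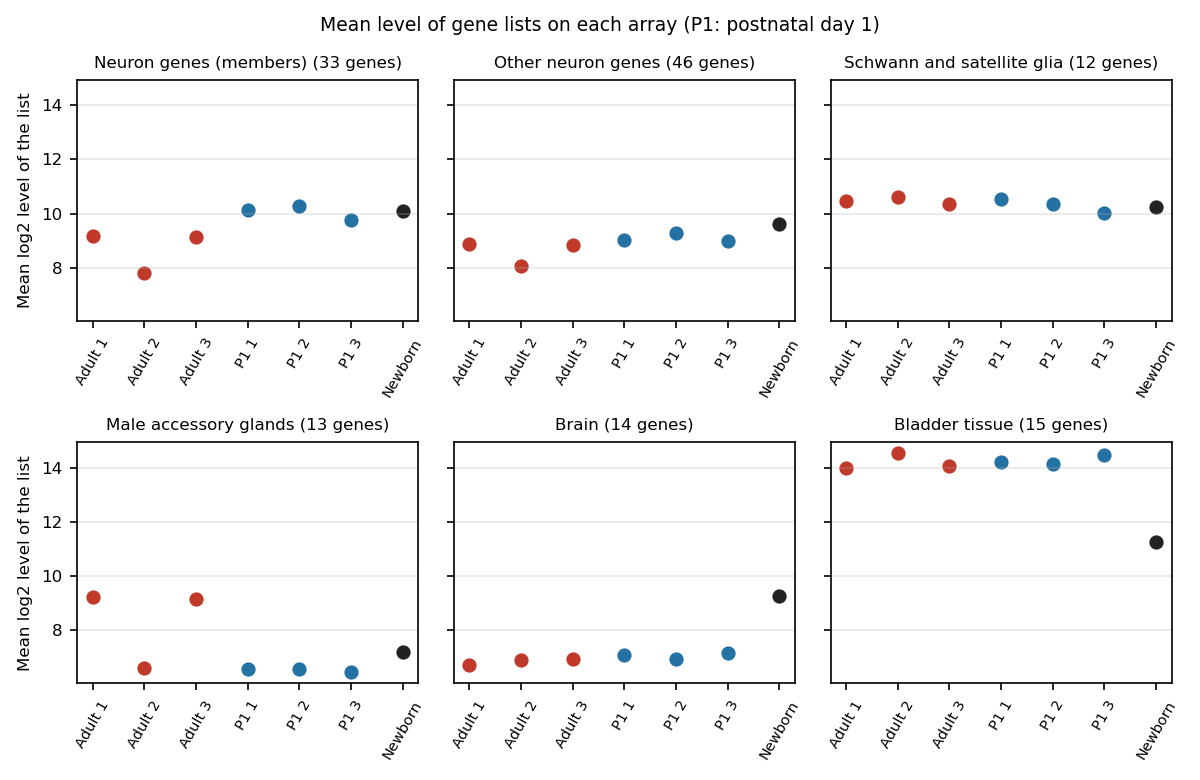
Mean log2 level of 6 gene lists on each array, with adult bladders in red, P1 bladders in blue and the whole newborn pool in black, 1 point per array. On adult replicate 2 the neuron lists (7.81 for the 33 genes) and the accessory gland list (6.59) are the lowest of the adult arrays. The glial and bladder tissue lists are not, but the genes of the glial list went both ways.

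Without adult replicate 2 the median difference between adult and P1 bladder was -0.94, and 25 of the 33 values were still below 0. The 3 genes then called lower were Dcx, Gap43 and Nefm, against 2.38% of all genes. In 5 genes the difference was negative with adult replicate 2 and positive without it: Snap25 (0.40), Ret (0.17), Chrna3 (0.34), Scg2 (0.03) and Ngfr (0.31), none of them called either way. Conversely, against adult replicate 2 alone (leaving out adult replicates 1 and 3, with the lone array assumed to vary like the others), the median was -2.32 and no gene was called by limma at an adjusted p under 0.05, where 0.0055% of all genes were called lower. At an unadjusted p under 0.05, 23 members were lower, against 8.59% of all genes.

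**Figure D3:**
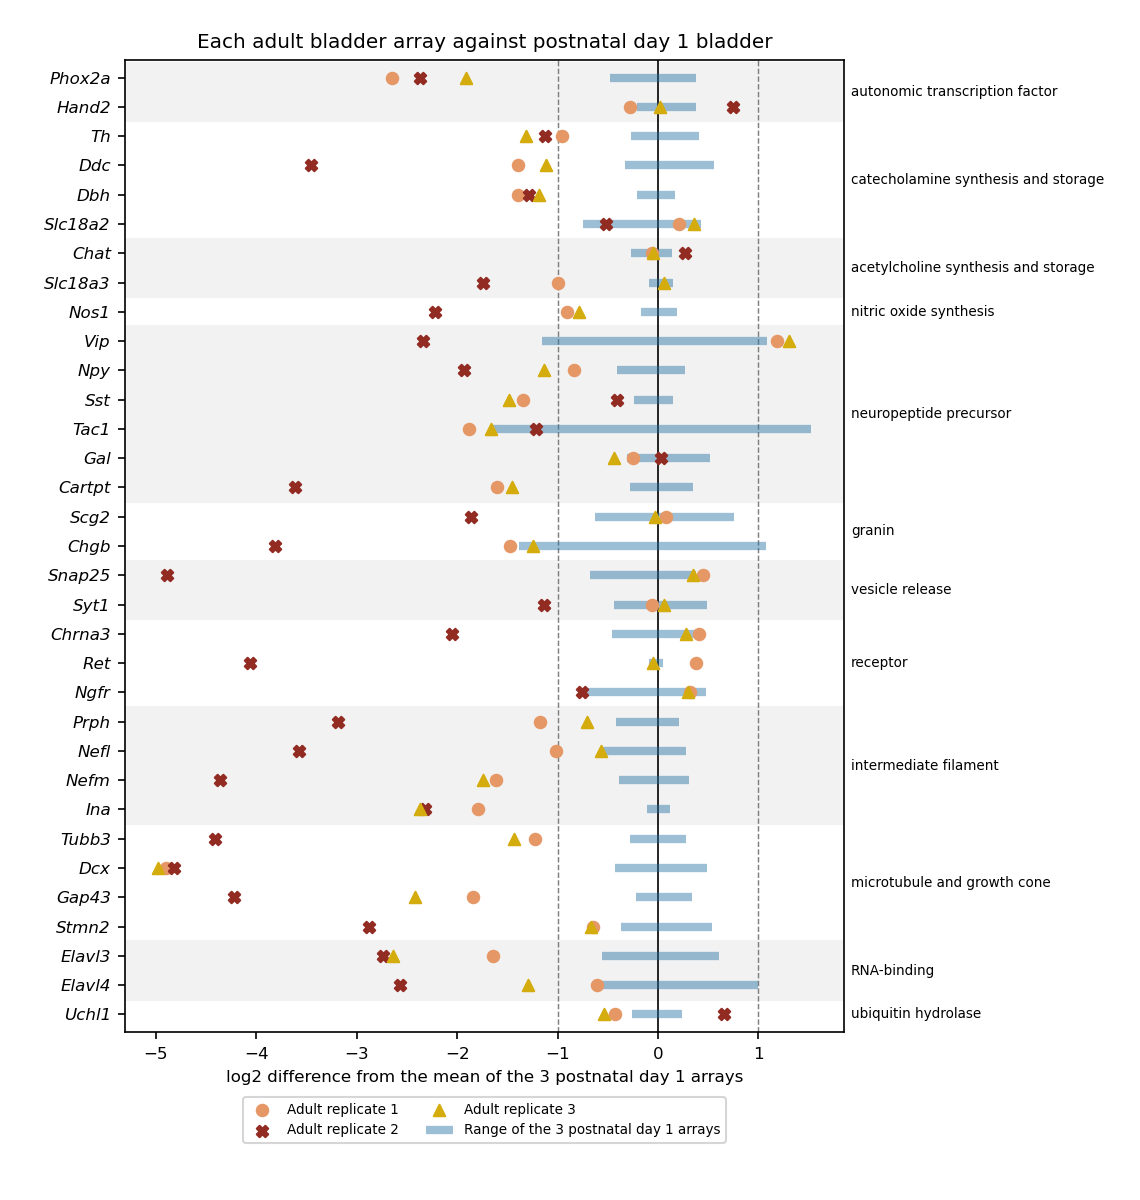
Each adult bladder array against the mean of the 3 P1 arrays, in log2 units, for the 33 neuron genes. Blue bars give the range of the P1 arrays around their mean and dashed lines mark 1 log2 unit. On the probe sets used, Dcx, Ina, Phox2a and Dbh lie together on all adult arrays, with Dcx and Ina near the bottom of the scale. In Snap25, Ret, Tubb3 and Nefm adult replicate 2 lies far below the other adult arrays.

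Of the 4 microtubule and growth cone genes, 2 were called lower in adult bladder. Doublecortin (Dcx), a microtubule-binding protein of migrating and newly formed neurons, read 8.8, 12.2 and 5.9 on the adult arrays, against 2377, 1602 and 1239 on the P1 arrays. It was near the bottom of the scale in every adult bladder and well above the array median in every P1 bladder. The log2 difference was -4.90 (SE 0.41, adjusted p = 0.00218, limma), and with any of the 6 arrays left out in turn the adjusted p lay between 0.00645 and 0.0161. Since the adult readings are near the bottom of the scale, the added 49 limits the size of this difference, and the adult bladders cannot be ranked in it.

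Gap43, a growth cone membrane protein, read 274.8, 13.1 and 168.3 in adult bladders, against 949.7, 1421 and 1016 in P1 bladders. The groups did not overlap, and adult replicate 2 was the lowest. The log2 difference was -2.83 (SE 0.61, adjusted p = 0.048, limma). The call is close to the threshold: it held without adult replicate 2 (-2.13, adjusted p = 0.0394), but the adjusted p was 0.0706 and 0.126 without adult replicates 1 and 3, and 0.122, 0.15 and 0.103 without P1 replicates 1, 2 and 3. It was also over the threshold with a pseudocount of 9 (0.0742), median centring (0.061), quantile normalization (0.0709) and no trend (0.0646).

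Tubb3, the neuronal beta-tubulin, read 442.9, 4.9 and 377.2 in adult bladders, against 898.6, 1343 and 1094 in P1 bladders. It was lower on all adult arrays, by far the most on adult replicate 2 (-4.41, against -1.22 and -1.43 on adult replicates 1 and 3), and with that spread it did not pass (-2.35, SE 0.78, adjusted p = 0.167, limma). Stmn2, which destabilises microtubules in growing axons, read 2098, 407.8 and 2071 in adult bladders, against 2952, 4832 and 2563 in P1 bladders; only adult replicate 2 was past 1 log2 unit below the P1 mean, and the difference of -1.40 did not pass (SE 0.58, adjusted p = 0.272, limma).

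The neuronal RNA-binding proteins Elavl3 and Elavl4 bind and stabilise messenger RNAs as neurons mature. Elavl3 read 136.2, 37.6 and 43.6 in adult bladders, against 344.8, 507.1 and 830.5 in P1 bladders. All adult arrays lay below all P1 arrays, with a log2 difference of -2.34 (SE 0.50, adjusted p = 0.0463, limma). Leaving out any of the 6 arrays ended the call: the adjusted p was 0.0827, 0.091 and 0.181 without adult replicates 1, 2 and 3, and 0.0804, 0.122 and 0.112 without P1 replicates 1, 2 and 3. With the mean of its 3 probe sets the difference was -0.91 (adjusted p = 0.17), and the call was also lost with a pseudocount of 165 (0.0563) and quantile normalization (0.0507). Elavl4 read 690.6, 141.3 and 413.0 in adult bladders, against 832.8, 2210.0 and 678.7 in P1 bladders. Adult replicate 1 fell within the P1 range for Elavl4, and the difference of -1.49 did not pass (SE 0.60, adjusted p = 0.254, limma).

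Neurofilaments and related intermediate filaments form the scaffold of axons. In all 4 of these genes every adult array lay below every P1 array, and 1 of the 4 was called. Ina (alpha-internexin), made early in neuronal development, read 76.1, 37.6 and 34.5 in adult bladders, against 352.3, 380.9 and 419.4 in P1 bladders. The adult arrays stood together, and the log2 difference was -2.16 (SE 0.39, adjusted p = 0.0264, limma). With 1 array left out the size of the difference stayed near this value, but the adjusted p was 0.0799, 0.054 and 0.133 without adult replicates 1, 2 and 3, and 0.0736, 0.0773 and 0.0681 without P1 replicates 1, 2 and 3.

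Nefm, the medium neurofilament chain, read 1064, 116.4 and 965.4 in adult bladders, against 3526, 4165 and 2535 in P1 bladders. Adult replicate 2 was far below the other adult bladders, and all lay below P1. The difference of -2.57 did not pass (SE 0.67, adjusted p = 0.0886, limma), but without adult replicate 2 it was smaller and passed (-1.67, adjusted p = 0.0363). Nefl, the light chain, read 3219, 504.6 and 4417 in adult bladders, against 7975, 7941 and 4485 in P1 bladders; adult replicate 3 came close to P1 replicate 3, and the difference of -1.72 did not pass (SE 0.69, adjusted p = 0.255, limma).

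Prph (peripherin), an intermediate filament of peripheral neurons, read 807.4, 161.8 and 1126 in adult bladders, against 2179, 2167 and 1386 in P1 bladders, a difference of -1.69 that did not pass (SE 0.60, adjusted p = 0.195, limma). The groups did not overlap, and adult replicate 2 was again the lowest adult array. Over the 17 members with several probe sets, there were 32 further probe sets, of which 16 lay below the array median on all 7 arrays. Of the rest, 8 lay above it on at least 4 arrays. None of these 8 had the opposite sign to the probe set used for the difference between adult and P1 bladder. Over all 32, 4 had the opposite sign. For Prph itself 1 further probe set, above the median on 3 arrays, gave a difference of 0.44 (1.9 on adult replicate 2 against the P1 mean), and another gave -0.44 (0.44 on adult replicate 2), where the probe set used gave -3.19 on adult replicate 2, so the gap of adult replicate 2 in Prph rests on the probe set used.

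Among transcription factors, Phox2a, which specifies autonomic neurons and switches on noradrenaline synthesis genes, read 70.0, 94.9 and 148.8 in adult bladders, against 749.0, 923.8 and 484.9 in P1 bladders. All adult bladders lay below all P1 bladders, and adult replicate 1 was the lowest. The log2 difference was -2.31 (SE 0.43, adjusted p = 0.0282, limma). As with Ina, each array left out took the adjusted p over the threshold: 0.114, 0.055 and 0.0916 without adult replicates 1, 2 and 3, and 0.096, 0.103 and 0.0505 without P1 replicates 1, 2 and 3.

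Hand2, which acts in sympathetic neurons but is also made in mesenchyme outside the nervous system, read 4534, 9299 and 5576 in adult bladders, against 4878, 7194 and 4754 in P1 bladders. The groups overlapped (0.16, SE 0.31, adjusted p = 0.858, limma), and the sign turned without adult replicate 2 (-0.13), the adult array with the highest value. Its high reading on adult replicate 2 set it apart from most of the other genes. Uchl1, a ubiquitin hydrolase abundant in neurons and present in other cells, was also highest on adult replicate 2: it read 1793, 3871 and 1654 in adult bladders, against 2033, 2466 and 2874 in P1 bladders, with no call (-0.11, SE 0.35, adjusted p = 0.928, limma).

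The noradrenaline pathway runs from tyrosine hydroxylase (Th, the rate-limiting step) through Ddc, the decarboxylase that makes dopamine, to Dbh, which makes noradrenaline. Slc18a2 loads the transmitter into vesicles. None of the 4 genes was called, but in Th, Ddc and Dbh every adult array lay below every P1 array. Th read 186.7, 160.8 and 136.2 in adult bladders, against 562.9, 366.9 and 332.6 in P1 bladders (-1.14, SE 0.40, adjusted p = 0.193, limma). Dbh read 352.8, 382.6 and 413.3 in adult bladders, against 1031, 1132 and 861.2 in P1 bladders (-1.29, SE 0.31, adjusted p = 0.0727, limma). On the probe sets used for Th and Dbh, adult replicate 2 did not stand apart. For Dbh this rests on the probe set used, which put adult replicate 2 at -1.28 from the P1 mean. A further probe set put it at 0.01 and another, mostly below the array median, at -2.25. In Ddc adult replicate 2 stood apart. The gene read 1112, 227.5 and 1348 in adult bladders, against 4418, 2361 and 2545 in P1 bladders (-1.99, SE 0.59, adjusted p = 0.125, limma). Slc18a2 lay between 115.1 and 253.4 in adult bladders and between 91.7 and 268.5 in P1 bladders, ranges that overlap.

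The cholinergic genes could not be read well on these arrays. Chat, the acetylcholine-synthesising enzyme, and Slc18a3, which loads acetylcholine into vesicles, lay below the array median on all 7 arrays. Chat read 162.5, 216.6 and 164.5 in adult bladders, against 134.5, 192.7 and 194.2 in P1 bladders, and the groups overlapped. Slc18a3 read 62.3, 17.5 and 181.9 in adult bladders, against 197.9, 162.9 and 160.2 in P1 bladders. Adult replicate 2 was the lowest and adult replicate 3 lay within the P1 range. Neither passed (0.05, SE 0.39, adjusted p = 0.971 for Chat and -0.89, SE 0.50, adjusted p = 0.433 for Slc18a3, limma). Nos1, the neuronal nitric oxide synthase, was above the median throughout and read 939.2, 349.2 and 1023 in adult bladders, against 1785, 2064 and 1595 in P1 bladders. The groups did not overlap, but the difference of -1.31 did not pass (SE 0.41, adjusted p = 0.146, limma).

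Of the 6 neuropeptide precursors, none was called, and the members did not share an order. Vip, a relaxing peptide of parasympathetic neurons, read 10439, 861.8 and 11361 in adult bladders, against 4776, 9756 and 2018 in P1 bladders. Adult replicates 1 and 3 lay above all P1 arrays and adult replicate 2 below all of them. The mean difference of 0.05 (SE 0.94, adjusted p = 0.988, limma) describes none of the adult bladders: it was 1.25 without adult replicate 2, -0.52 without adult replicate 1, -0.58 without adult replicate 3 and -0.53 without P1 replicate 3.

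Npy, the co-transmitter of noradrenaline neurons, read 517.2, 216.6 and 410.9 in adult bladders, against 1069.6, 1173 and 715.0 in P1 bladders, with all adult arrays below all P1 arrays (-1.31, SE 0.40, adjusted p = 0.139, limma). Cartpt, a peptide precursor found in pelvic and enteric neurons, read 478.8, 80.9 and 534.8 in adult bladders, against 1271, 1989 and 1475 in P1 bladders. It was lower on all adult arrays and most so on adult replicate 2 (-2.23, SE 0.57, adjusted p = 0.0844, limma). Sst (somatostatin) read 139.9, 310.4 and 121.9 in adult bladders, against 356.0, 480.2 and 456.4 in P1 bladders (-1.07, SE 0.44, adjusted p = 0.261, limma); here adult replicate 2 was the highest adult array.

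Tac1, the substance P precursor of sensory neurons, read 6.7, 39.4 and 15.7 in adult bladders, against 540.7, 16.5 and 174.2 in P1 bladders. It was low in every adult bladder and ran over 3.17 log2 units between the P1 bladders, so the groups overlapped (-1.59, SE 0.70, adjusted p = 0.303, limma). Gal (galanin), made by injured and some autonomic neurons, lay below the array median on all 7 arrays, at 123.9 to 190.3 in adult bladders and 140.2 to 288.6 in P1 bladders.

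The granins fill the dense-core vesicles that carry peptides and amines. Chgb (chromogranin B) read 730.0, 104.2 and 861.6 in adult bladders, against 2614, 4492 and 775.2 in P1 bladders; P1 replicate 3 lay among the adult arrays, and the difference of -2.17 did not pass (SE 0.79, adjusted p = 0.207, limma). Scg2 (secretogranin II) read 529.0, 101.4 and 486.3 in adult bladders, against 450.2, 872.8 and 304.1 in P1 bladders. Only adult replicate 2 was outside the P1 range.

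The genes for vesicle release and for receptors differed between adult bladders more than between stages. Snap25, a membrane protein of the vesicle fusion machinery, read 2325, 9.8 and 2163 in adult bladders, against 2083, 2214 and 1037 in P1 bladders. Adult replicate 2 was near the bottom of the scale, while adult replicates 1 and 3 sat near P1 replicates 1 and 2. This was the widest span of any member over the adult arrays, 5.34 log2 units, and the mean difference of -1.36 (SE 1.24, adjusted p = 0.665, limma) turned to 0.40 without adult replicate 2. Syt1, the calcium sensor of vesicle release, read 1312, 594.1 and 1424 in adult bladders, against 1318, 1942 and 995.2 in P1 bladders; adult replicate 2 was again the lowest array, by a smaller gap.

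Ret, the signalling receptor for GDNF family ligands, read 5428, 203.8 and 4019 in adult bladders, against 3893, 4274 and 4313 in P1 bladders. The P1 bladders differed by 0.15 log2 units and adult replicates 1 and 3 were close to them, whereas adult replicate 2 lay at -4.06 from their mean. The difference between stages was -1.24 with adult replicate 2 (SE 0.98, adjusted p = 0.606, limma) and 0.17 without it. Chrna3, the nicotinic receptor subunit that carries ganglionic transmission, read 707.4, 89.2 and 644.2 in adult bladders, against 534.0, 716.7 and 367.9 in P1 bladders. Its difference was -0.45 with adult replicate 2 (SE 0.66, adjusted p = 0.806, limma) and 0.34 without it. Ngfr, the low-affinity neurotrophin receptor also made by Schwann cells, read 258.3, 96.1 and 253.6 in adult bladders, against 255.6, 293.1 and 94.0 in P1 bladders, so 1 array of each group was low.

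By adult array, the members fell into patterns. On the probe sets used, every adult bladder was lower than P1 past 1 log2 unit in 10 genes: Phox2a, Ddc, Dbh, Cartpt, Nefm, Ina, Tubb3, Dcx, Gap43 and Elavl3. Adult bladders differed among themselves in these genes by 0.16 to 3.19 log2 units. In 8 genes only adult replicate 2 was: Slc18a3, Nos1, Scg2, Snap25, Syt1, Chrna3, Ret and Stmn2. Some of these gaps rest on the probe set used. On the probe set with the next highest mean, adult replicate 2 lay at -0.39 from the P1 mean in Stmn2 and -0.11 in Ret. It lay at 0.2 in Syt1 and -0.56 in Snap25, but at -2.87 in Chrna3 and -1.99 in Nos1. Those of Ret, Syt1, Snap25 and Nos1 were below the array median on most arrays. Scg2 and Slc18a3 had no further probe set. The 8 genes span transmitter synthesis, vesicle release, a nicotinic subunit and a growth factor receptor. Adult bladders differed in them by 1.2 to 5.34 log2 units. Slc18a3, below the array median on all 7 arrays, was at the edge of the rule, with -1.0 on adult replicate 1. The share of all genes with either pattern was not counted, so the 2 counts are descriptions only.

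Promoter sequence was compared because several of the peptide, granin and amine genes are textbook targets of cyclic AMP signalling. RefSeq promoter windows (GRCm38.p6, 250 bases before to 50 after the annotated start) were matched by symbol for 28 of the 34 genes. The cyclic AMP response element, TGACGTCA, reads the same on both strands. It occurred in the windows of 6 of these 28 genes (21.4%), against 2.03% of all 27025 genes with a window. The 4 windows below are from genes whose levels behaved differently across the adult bladders, with the element in capitals; each reads 5′ to 3′ on the strand of its gene. They lie at chr7:142899946-142900245 on the minus strand for Th, chr13:99900634-99900933 on the minus strand for Cartpt, chr2:132781392-132781691 on the plus strand for Chgb and chr1:79439977-79440276 on the minus strand for Scg2.
Th: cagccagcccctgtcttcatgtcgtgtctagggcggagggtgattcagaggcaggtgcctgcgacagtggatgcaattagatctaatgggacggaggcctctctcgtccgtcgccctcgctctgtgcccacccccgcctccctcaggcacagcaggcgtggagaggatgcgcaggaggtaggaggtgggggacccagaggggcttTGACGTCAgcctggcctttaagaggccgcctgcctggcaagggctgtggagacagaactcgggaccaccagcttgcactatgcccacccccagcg
Cartpt: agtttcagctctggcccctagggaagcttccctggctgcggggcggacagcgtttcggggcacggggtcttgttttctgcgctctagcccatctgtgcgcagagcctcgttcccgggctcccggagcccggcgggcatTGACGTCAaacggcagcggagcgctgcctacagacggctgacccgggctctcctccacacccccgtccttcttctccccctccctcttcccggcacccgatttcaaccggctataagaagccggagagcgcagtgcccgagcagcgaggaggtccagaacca
Chgb: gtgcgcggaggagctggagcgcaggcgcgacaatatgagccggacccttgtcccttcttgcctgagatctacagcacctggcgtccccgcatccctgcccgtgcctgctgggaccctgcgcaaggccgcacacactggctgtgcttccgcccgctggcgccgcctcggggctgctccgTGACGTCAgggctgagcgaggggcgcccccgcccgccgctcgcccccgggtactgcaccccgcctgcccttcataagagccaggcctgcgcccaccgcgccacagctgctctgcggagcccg
Scg2: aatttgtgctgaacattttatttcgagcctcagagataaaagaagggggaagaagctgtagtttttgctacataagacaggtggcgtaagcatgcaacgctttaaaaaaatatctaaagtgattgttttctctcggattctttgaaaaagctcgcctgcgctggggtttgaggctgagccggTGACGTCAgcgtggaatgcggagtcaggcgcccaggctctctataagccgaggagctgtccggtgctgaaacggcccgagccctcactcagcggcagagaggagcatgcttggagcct
The element began at -45 from the start in Th, -112 in Cartpt, -72 in Chgb and -68 in Scg2. It was also present in Sst at -48 and in Slc18a2 at -4. Its 5-base ends, TGACG or CGTCA, which also count every whole element, occurred in 16 of the 28 genes (57.1%), against 23.0% of all genes. The 6 genes with the whole element did not move alike: in Th, Cartpt and Sst every adult array lay below every P1 array, Chgb and Slc18a2 overlapped, and in Scg2 only adult replicate 2 left the P1 range. A match is a description of the letters in these windows. The element was picked for its known link to several of these genes, so its higher shares among them are no test. Stmn2, Ret, Snap25, Nefm, Gap43 and Nefl were not in the table of windows.

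**Figure D4:**
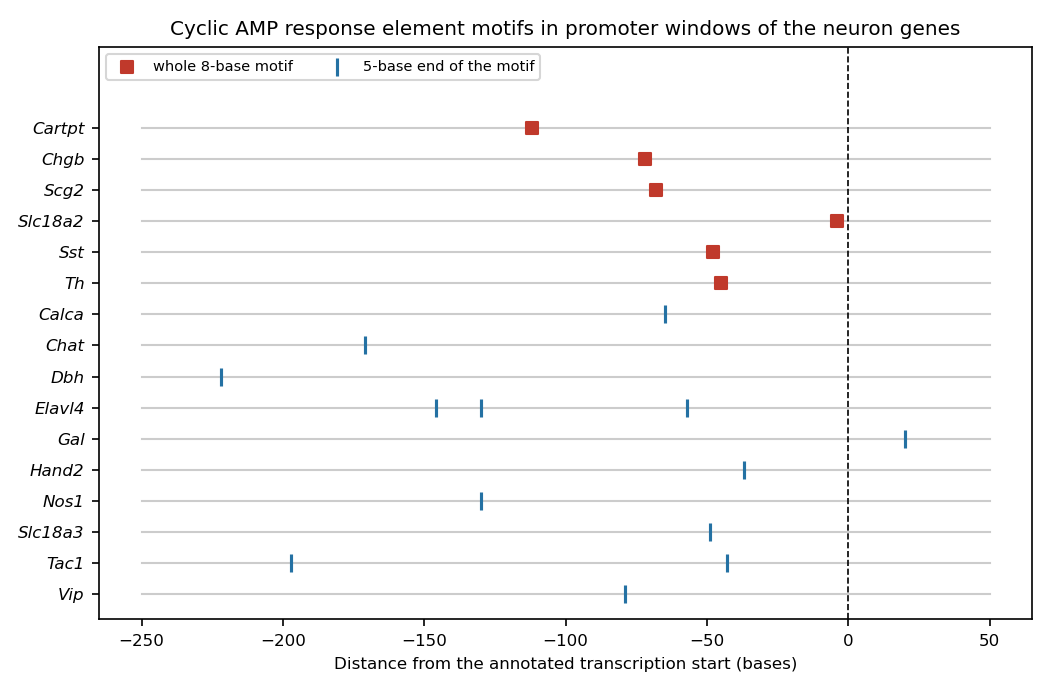
Position of the cyclic AMP response element (red squares) and of its 5-base ends alone (blue ticks) in RefSeq promoter windows of the neuron genes that hold either, in bases from the annotated start (dashed line). In all 6 genes that have the whole element, it begins between 112 and 4 bases before the start.

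A wider list of neuron genes was also read. Of 50 further genes of autonomic, sensory and general neuronal function, 46 were measured; 2 were lower in adult bladder (4.35%, against 2.39% of all genes) and none was higher. At an unadjusted p under 0.05, 13 were lower and 2 were higher, against 10.6% and 9.73% of all genes. The median difference was -0.47, with 32 of 46 values below 0. Stmn4, another microtubule regulator of neurons, read 30.1, 25.4 and 27.3 in adult bladders, against 968.4, 582.7 and 818.8 in P1 bladders (-3.43, SE 0.40, adjusted p = 0.00593, limma). Like Dcx, it was low on all adult arrays alike. Penk, the enkephalin precursor, read 1864, 1588 and 1685 in adult bladders, against 7263, 4786 and 4990.0 in P1 bladders (-1.68, SE 0.25, adjusted p = 0.0136, limma); its adjusted p was 0.0598 without adult replicate 1 and 0.0773 without adult replicate 3.

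Calcb, which encodes the beta form of calcitonin gene-related peptide, read 95.4, 247.2 and 205.4 in adult bladders, against 568.7, 1360.0 and 944.7 in P1 bladders and did not pass (-2.10, SE 0.46, adjusted p = 0.0517, limma). Adult replicate 2 was the lowest adult array in 29 of the 46 genes, the highest in 9 and between the others in 8. The next 3 genes, chosen after their values were seen, are among the 29. Slc6a2, the noradrenaline transporter, read 1600.4, 59.8 and 1085 in adult bladders, against 302.2, 683.5 and 8.4 in P1 bladders. Slc5a7, the choline transporter of cholinergic nerves, read 666.0, 109.0 and 664.3 in adult bladders, against 496.6, 1238 and 650.0 in P1 bladders. Isl1, a transcription factor of sensory and autonomic neurons, read 3951, 612.9 and 2429.7 in adult bladders, against 6439, 4916 and 3712 in P1 bladders. None of the 3 was called. Gata3, a transcription factor of sympathetic neurons that is also made in urothelium, went the other way, at 13377, 20751 and 10576 in adult bladders, against 7686, 10395 and 9786 in P1 bladders.

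Against whole newborns, which hold brain and spinal cord, P1 bladder was lower in Tac1, Ina and Dcx and higher in Hand2. That is 3 lower and 1 higher of 33 genes, against 5.47% lower and 2.15% higher over all genes, and the median difference of the members was 0.17 (all genes -0.09). Tac1 read 540.7, 16.5 and 174.2 in P1 bladders and 5205 in whole newborns (-4.68, SE 1.03, adjusted p = 0.0357, limma). Ina read 352.3, 380.9 and 419.4 in P1 bladders and 2616 in whole newborns (-2.62, SE 0.55, adjusted p = 0.0299). Dcx read 2377, 1602 and 1239 in P1 bladders and 10142 in whole newborns (-2.56, SE 0.53, adjusted p = 0.0283). All P1 bladders lay below the pool in these genes. Hand2 read 4878, 7194 and 4754 in P1 bladders and 881.0 in whole newborns (2.58, SE 0.45, adjusted p = 0.013).

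With 1 array left out the differences moved little, but each lower call was lost under some of these settings. The difference of Tac1 stayed at -4.68 without adult replicate 1, 2 or 3, which enter only its error, with an adjusted p of 0.0678, 0.0537 and 0.0677, and it was -4.74 without P1 replicate 3 (0.0624). Ina differed by -2.62 without adult replicate 3 (0.0598), -2.57 without P1 replicate 1 (0.0701) and -2.62 without P1 replicate 2 (0.0735). Dcx differed by -2.53 without P1 replicate 2 (0.081) and -2.35 without P1 replicate 3 (0.0576). With a pseudocount of 9 the adjusted p was 0.104 for Tac1, 0.0773 for Ina and 0.0709 for Dcx, and with median centring it was 0.0833 for Ina and 0.0881 for Dcx. Tac1 was also lost with no trend (0.051), and with the mean of probe sets both Tac1 (-1.78, adjusted p = 0.0874) and Hand2 (1.14, adjusted p = 0.154) were lost. The whole newborn group is 1 array, assumed in the fit to vary like the bladder arrays, and both comparisons with it share that array.

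Adult bladder was lower than whole newborns in 5 of the 33 genes (Tac1, Ina, Dcx, Gap43 and Elavl3) and higher in Hand2, against 7.39% lower and 3.86% higher over all genes. The median difference was -1.11 (all genes -0.15), with 25 values below 0. Dcx read 8.8, 12.2 and 5.9 in adult bladders and 10142 in whole newborns (-7.46, SE 0.53, adjusted p = 0.000242, limma). Tac1 read 6.7, 39.4 and 15.7 in adult bladders and 5205 in whole newborns (-6.27, SE 1.03, adjusted p = 0.0081). Ina differed by -4.78 (SE 0.55, adjusted p = 0.00157), Gap43 by -4.06 (SE 0.84, adjusted p = 0.0221) and Elavl3 by -3.76 (SE 0.69, adjusted p = 0.0134). In each of these 5 genes all adult bladders lay below the pool. Hand2 differed by 2.74 (SE 0.45, adjusted p = 0.00785). With the mean of probe sets Hand2 (1.27, adjusted p = 0.0919) and Elavl3 (-1.34, adjusted p = 0.1) did not pass, and Gap43 did not with a pseudocount of 9 (0.0565) or median centring (0.0545).

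The scaling of the newborn array matters for these counts. Of all genes called, 28.3% were higher in P1 bladder than in whole newborns, but 57.5% were after centring each array on its median and 42% after quantile normalization. For adult bladder against whole newborns the shares were 34.3%, 62.6% and 47.2%. Centring moved the median of all genes to 0.59 for P1 bladder and 0.52 for adult bladder against whole newborns, and quantile normalization to 0.17 and 0.12. The median of the members was then 0.86 for P1 bladder and -0.44 for adult bladder with centring, so relative to all genes the members of adult bladder stayed below whole newborns. Between adult and P1 bladder the median of all genes stayed between -0.05 and -0.03 under all of these scalings, and 42.3%, 36.7% and 41.8% of calls were higher.

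**Figure D5:**
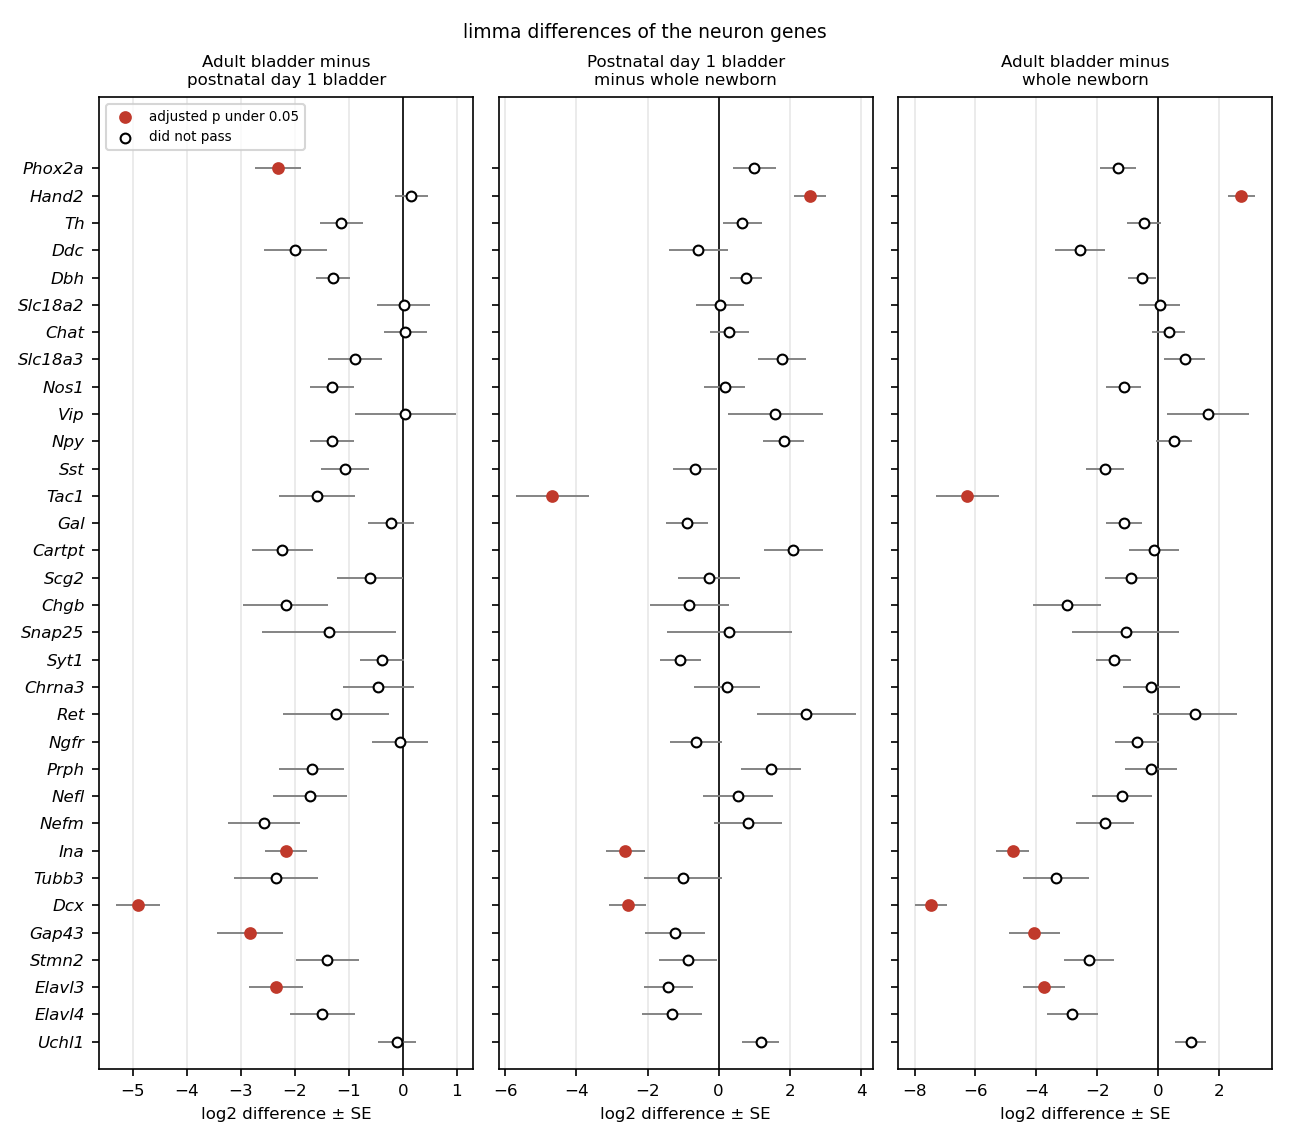
limma log2 differences with SE bars for the 33 neuron genes in the 3 comparisons; filled red points passed an adjusted p of 0.05 and open points did not. Dcx and Ina are filled in all comparisons, at -4.90 and -2.16 for adult against P1 bladder, and Hand2 is filled on the positive side of both comparisons with whole newborns.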

How the data were processed

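The authors deposited 1 linear intensity per probe set and array, with no detection calls. The submitters' processing notes name GCOS, the scanner software, without a version; the summary method is not given in the sources used here. Every array had the same mean intensity of 1500.01 once 2% of values were trimmed at each end, which shows a scaling by the authors. Per the labels' protocols, RNA went through an amplification in 2 rounds.

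Of 45101 probe sets, 64 controls were left out and 45037 were tested: 34945 name 1 gene in the platform annotation, 932 several and 9160 none. A pseudocount of 49, the 20th percentile of all intensities, was added before log2, and the arrays were left uncentred and unfiltered, so that every member had a test. limma 3.58.1 in R 4.3.3 (lmFit, eBayes with trend) used the 6 bladder arrays for adult against P1 bladder and all 7 arrays for the comparisons with whole newborns, with Benjamini-Hochberg adjustment over all probe sets. The procedure was tested on simulated data with independent noise in every value. No simulated array stood apart over many genes, so that test does not cover an array like adult replicate 2. The number of arrays limits the precision.

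Values of a gene are given in full where it was called, where the adult arrays spanned over 2 log2 units, or to show its role; of each further gene list, up to 4 with the lowest adjusted p were eligible, and Isl1, Slc6a2, Slc5a7, Gata3 and Egr2 were named after their values were seen. The members, lists and array comparisons were chosen with earlier results of these data known. Alternatives were pseudocounts of 9 and 165, median centring, quantile normalization, a filter on probe sets above the array median in at least 3 bladder arrays, no trend, array weights, the mean of a gene's probe sets, all 7 arrays, and leaving out arrays.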

Additional observations from a re-analysis of the deposited data

How the results depend on the processing

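Of 177 recomputed counts and medians, 151 kept their direction and size, 25 moved and 1 changed sign. Between adult and P1 bladder, the 5 genes called lower became 3 with quantile normalization, 8 with the filter and 1 to 3 with 1 array left out. Of all genes tested, 2.49%, 4.95% and 0.682% to 2.38% were called lower under the same settings, against 2.39% in the main fit. The median of the members ran from -1.56 to -0.94 with 1 array left out and was -2.32 leaving out adult replicates 1 and 3. With the filter, where fewer probe sets were tested, Dbh (adjusted p = 0.0364, limma), Cartpt (0.0427) and Nefm (0.0464) also passed. Phox2a, Ina, Dcx and Elavl3 met the filter only through the P1 arrays, where they were higher, so their calls under it are no further support. Dbh and Nefm passed with array weights (0.0322 and 0.045), Dbh and Cartpt with the mean of probe sets (0.0492 and 0.049), and Nefm without adult replicate 2 (0.0363). For P1 bladder against whole newborns, the 3 genes called lower became 0 with a pseudocount of 9, 1 with centring and 1 to 2 with 1 array left out. The share of all genes called lower was 3.37% with a pseudocount of 9 and 3.31% with centring, against 5.47% in the main fit. The 1 gene called higher became 0 with the mean of probe sets and 1 to 3 with 1 array left out, 3 being the count without adult replicate 2. Without adult replicate 2, 3.4% of all genes were called higher, against 2.15% in the main fit. The median was 0.86 with centring, changed sign to -0.03 with the mean of probe sets, and ran from 0.02 to 0.26 with 1 array left out. For adult bladder against whole newborns, the 5 genes called lower became 8 with array weights and 5 to 7 with 1 array left out. With array weights 12.3% of all genes were called lower, against 7.39% in the main fit. The 1 called higher became 0 with the mean of probe sets and 1 to 2 with 1 array left out. Over all genes 3.56% were called higher with the mean of probe sets and 5.94% without adult replicate 2, against 3.86% in the main fit. The median was -0.44 with centring, -1.82 leaving out adult replicates 1 and 3, and ran from -1.39 to -0.52 with 1 array left out. Counts by adult array ran from 14 to 18, 24 to 26 and 13 to 16 lower, and from 0 to 1, 0 to 0 and 0 to 1 higher, on adult replicates 1, 2 and 3 with 1 P1 array left out. Settings that leave out arrays have fewer samples; for the others the cause was not tested.

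Single genes changed sign between adult and P1 bladder in 29 of 618 recomputed values, none of them called. With array weights these were Hand2 (-0.04), Chat (-0.02), Chrna3 (0.07) and Ngfr (0.14), and with quantile normalization Slc18a2 (-0.02). With 1 array left out, Hand2 ran from -0.13 to 0.38, Slc18a2 from -0.35 to 0.29, Chat from -0.08 to 0.12, Vip from -0.58 to 1.25, Gal from -0.38 to 0.04, Scg2 from -0.94 to 0.03, Snap25 from -2.27 to 0.40, Chrna3 from -0.88 to 0.34, Ret from -2.05 to 0.17, Ngfr from -0.44 to 0.31 and Uchl1 from -0.49 to 0.11. The positive ends for Scg2, Snap25, Chrna3, Ret and Ngfr are those without adult replicate 2. Leaving out adult replicates 1 and 3 they were Slc18a2 (-0.52), Vip (-2.34), Gal (0.03) and Uchl1 (0.66). Of the genes not called against whole newborns, the sign changed in 11 of 403 recomputed values for P1 bladder, in 7 of 29 genes, and in 25 of 402 for adult bladder, in 11 of 27 genes; 2 genes and 7 genes were called under at least 1 alternative. No paired analysis was possible because adult and P1 bladders came from animals of different ages. Intensities near the bottom of the scale carry little information, and the deposited values hold no detection calls here.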

Other observations

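Of the ligands and receptors that guide or sustain these neurons, 13 of 16 listed genes were measured. In adult against P1 bladder 2 were lower and 1 was higher (median -0.25, limma), against 2.39% and 1.75% of all genes. Gdnf, a growth factor that acts through Ret and sustains autonomic neurons, read 28.4, 32.9 and 15.8 in adult bladders, against 422.6, 202.8 and 372.3 in P1 bladders (-2.31, SE 0.40, adjusted p = 0.0231). It was low in every adult bladder, adult replicate 2 included, whereas Ret, on the probe set used, was low on adult replicate 2 alone. Without adult replicates 1 and 3 in turn the adjusted p of Gdnf was 0.1 and 0.124, and without P1 replicates 1 and 3 it was 0.0671 and 0.0608. Gfra1, the co-receptor that binds Gdnf, read 2281, 1326 and 1312 in adult bladders, against 4795, 2305 and 3398 in P1 bladders, and did not pass (-1.06, SE 0.35, adjusted p = 0.164).

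Ntf5 (neurotrophin-4, a ligand of the receptor Ntrk2) read 358.6, 453.6 and 305.0 in adult bladders, against 1076, 1549 and 1084 in P1 bladders (-1.60, SE 0.33, adjusted p = 0.0418). Its adjusted p was 0.139 and 0.17 without adult replicates 1 and 3, and 0.0998, 0.142 and 0.0818 without P1 replicates 1, 2 and 3. Sema3a, a repellent of sensory and sympathetic axons that is also made outside nerves, went the other way: it read 9294, 8819.9 and 8508 in adult bladders, against 4306, 2654 and 1899.6 in P1 bladders (1.65, SE 0.30, adjusted p = 0.0277). The groups did not overlap in any of these 4 genes. The adjusted p of Sema3a was 0.117, 0.0588 and 0.113 without adult replicates 1, 2 and 3, and 0.093 and 0.0625 without P1 replicates 2 and 3.

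Of the 12 measured glial genes none was called by limma (median -0.14), against 2.39% lower and 1.75% higher over all genes. At an unadjusted p under 0.05, 1 was lower and 2 were higher in adult bladder, against 10.6% and 9.73% of all genes. Cdh19, a cadherin of Schwann cell precursors and Schwann cells, read 1381, 268.0 and 794.6 in adult bladders, against 210.0, 111.1 and 109.0 in P1 bladders, and did not pass (1.96, SE 0.58, adjusted p = 0.127). Of the 14 brain genes, Emx2, which is also made in the urogenital tract, was lower in adult bladder at 48.1, 2.7 and 5.4, against 404.1, 167.5 and 365.2 in P1 bladders (-2.41, SE 0.45, adjusted p = 0.0293). Its adjusted p was 0.0707, 0.0746 and 0.145 without adult replicates 1, 2 and 3, and 0.0853 and 0.0721 without P1 replicates 1 and 3. None of the 7 adrenal, 13 accessory gland and 15 bladder tissue genes was called between adult and P1 bladder by limma. At an unadjusted p under 0.05, 0 adrenal genes differed, 8 accessory gland genes were higher and 1 bladder tissue gene was lower in adult bladder. Over all genes 10.6% were lower and 9.73% higher at the same unadjusted p.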
